A study of Homo sapiens with 16 samples.

Results

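The libraries described here are the 4 RNA-seq libraries of day 70 (D70) of neural differentiation, out of 16 libraries in the series, and the comparison sets replicate 1 (DMSO and TMG) against replicate 2 (DMSO and TMG). They were chosen by stage and by the replicate number in the title, with the treatment as a covariate, and no measured value entered the choice. H9, an established line of human embryonic stem cells, was differentiated towards cortical neurons with inhibitors of BMP and activin/TGF-beta receptors (dual SMAD inhibition) and sampled on D0, D12, D30 and D70. At each stage 2 cultures had received Thiamet-G (TMG), an inhibitor of the enzyme that removes O-GlcNAc from proteins, at 40 µM, and 2 had received its solvent DMSO alone. All 16 libraries come from this 1 line. The study describes the 2 replicates as biological, but the labels do not say whether a replicate number marks the same round of culture in both arms or at several stages.

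Differentiation by dual SMAD inhibition steers pluripotent cells into dorsal forebrain neuroepithelium, which gives rise to radial glia and then to cortical neurons. The dorsal midline of the same neuroepithelium forms the roof plate, the cortical hem, the choroid plexus, which secretes cerebrospinal fluid, and the ciliated ependyma. Cells that leave the neural path can become surface ectoderm, whose stratified epithelium is built on keratins and the transcription factor TP63, neural crest, or mesenchyme, which lays down the fibrillar collagens COL1A1 and COL3A1. A culture held for many weeks can hold several of these lineages, and bulk RNA measures their mixture. In such RNA, fewer cells of a type and less RNA per cell cannot be told apart.

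The counts of the D70 libraries summed to between 12213409 and 17757289, and between 19.2% and 23.1% of each total fell on its 10 largest genes. A principal component analysis of log2 CPM over the 20024 genes tested put 75.7% of the variance on a first component, with scores of -102 for DMSO replicate 1, -84.7 for TMG replicate 1, 43.2 for DMSO replicate 2 and 143 for TMG replicate 2. The libraries thus lay in order of the replicate number and not of the treatment. TMG replicate 2 stood farthest from the others: across genes it correlated at 0.762 with DMSO replicate 1, at 0.785 with TMG replicate 1 and at 0.905 with DMSO replicate 2, while DMSO and TMG of replicate 1 correlated at 0.963. The medians of the main lists are therefore also given in the DMSO pair alone, which does not use that library.

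A separate treatment tag of 8 libraries, 2 of them on D70, names the other arm than the title. By the tags every replicate 1 library would be a control and every replicate 2 library would be treated, so on D70 the contrast of replicates is also the treatment contrast that the tags name, and the tags and titles cannot both hold. OGT and OGA, which encode the enzymes that add and remove O-GlcNAc and whose transcripts are known to respond to its level, served as a check. OGT was listed at 500 CPM in DMSO replicate 1, 456 in DMSO replicate 2, 607 in TMG replicate 1 and 655 in TMG replicate 2. Both TMG libraries by title lay above both DMSO libraries, and OGA did likewise, with 295 and 313 CPM in DMSO and 415 and 403 CPM in TMG. On D70 the log2 fold change of OGT was 0.43 (SE 0.20, edgeR adjusted p = 0.852) for TMG over DMSO by title and -0.04 (SE 0.20, adjusted p = 0.932) for replicate 1 over replicate 2. For OGA these were 0.45 (SE 0.18, adjusted p = 0.852) and -0.07 (SE 0.18, adjusted p = 0.85). Neither contrast passed for either gene on D70. At every stage the log2 fold change of OGT was larger by title, between 0.19 and 0.62, than by replicate, between -0.10 and 0.08. OGA did not separate the contrasts on D12, with 0.20 by title and 0.21 by replicate, or on D30, with 0.14 and 0.17. No direction of response was set beforehand, so the check compares sizes only and does not settle which labels hold. The groups of the titles are used throughout.

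The 4 libraries leave 1 residual degree of freedom after treatment and replicate. The quasi-likelihood test of edgeR called 0 of 20024 genes between the replicates (0%) at a 5% false discovery rate, and the lowest adjusted p was 0.0754. At an unadjusted p under 0.05, 2435 genes were higher in replicate 1 (12.2%) and 2136 in replicate 2 (10.7%). DESeq2, the tool the study used, called 1307 of 19247 genes higher in replicate 1 (6.79%) and 912 higher in replicate 2 (4.74%) at a false discovery rate of 5% on the same 4 libraries and terms. When edgeR took its spread from all 16 libraries, 2594 of 24249 genes were higher in replicate 1 (10.7%) and 1842 in replicate 2 (7.6%). Without TMG replicate 2, edgeR placed 2763 of 21641 genes higher in replicate 1 (12.8%) and 1903 higher in replicate 2 (8.79%) at an unadjusted p under 0.05. In either direction, 4571 genes were under that p in the 4 libraries, 4666 without TMG replicate 2, 2124 without DMSO replicate 1, 2651 without TMG replicate 1 and 6787 without DMSO replicate 2. Both replicate 1 libraries lay above both replicate 2 libraries for 6348 of the genes tested (31.7%), and the reverse held for 5838 (29.2%). The fits with a library left out also had no treatment term and only 1 library of 1 replicate, so more than the library changed. The count of calls thus depends on the tool, and the values of the single libraries are given for that reason. Because no gene passed by edgeR, "higher" and "lower" below describe levels, and the adjusted p of edgeR and DESeq2 is given for the main genes only.

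Levels are CPM (counts scaled to library size, with TMM factors over 16 libraries), and log2 differences are those of replicate 1 over replicate 2, negative where replicate 2 was higher. For each gene list the median over all matched members is of log2 ratios of CPM + 0.5, averaged over the DMSO and TMG pairs. The same median over the 36970 genes with any count on D70 was -0.03. Of the tested genes, 72.5% differed in the same direction in the DMSO pair and in the TMG pair. List counts of both libraries on top are over matched members, tested or not. The shares of all genes beside them are over tested genes only, so the 2 are not strictly alike.

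COL1A1, a chain of type I collagen (ENSG00000108821, chromosome 17, 48261462 to 48278993 of GRCh37), was listed at 2400 CPM in DMSO replicate 1, 1874 in TMG replicate 1, 20339 in DMSO replicate 2 and 27615 in TMG replicate 2. COL3A1, the chain of type III collagen (ENSG00000168542, chromosome 2, 189839099 to 189877472), had 1278 and 719 CPM in the replicate 1 libraries and 10843 and 13371 CPM in the replicate 2 libraries. For both genes the replicate 2 libraries lay far above the replicate 1 libraries in either arm. The log2 fold change was -3.53 (SE 0.39) for COL1A1, with an adjusted p of 0.088 by edgeR and 3.82e-20 by DESeq2. For COL3A1 it was -3.70 (SE 0.45), with 0.0926 by edgeR and 3.13e-17 by DESeq2.

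The mesenchyme and fibroblast list has 25 genes, all of them matched and tested, 3 of them passing the filter on low counts in 1 replicate only. Both replicate 2 libraries were above both replicate 1 libraries for 22 of the 25, against 29.2% of all genes. Calls among members are not counted for lists in which some members were tested only through the replicate where they were high. For such members no adjusted p of the D70 contrast is given. The median log2 difference was -2.84, with -2.37 in the DMSO pair and -2.91 in the TMG pair. LUM, a small proteoglycan that orders collagen fibrils, had 1.86 and 1.97 CPM in replicate 1 and 454 and 408 CPM in replicate 2 (log2 fold change -7.85, SE 0.25, adjusted p = 0.0754 by edgeR and 5.45e-91 by DESeq2). OGN, another small proteoglycan, had 0.642 and 0.473 CPM against 166 and 119 CPM (log2 fold change -8.02, SE 0.23). The type VI collagen chain COL6A3 had 4.04 and 15.1 CPM against 853 and 1974 CPM (log2 fold change -7.41, SE 0.37). For all 3 the replicate 2 libraries lay far above both replicate 1 libraries.

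Transcription factors of mesenchyme showed the same order. TWIST1 had 0.642 and 0.631 CPM in replicate 1 and 35 and 44.8 CPM in replicate 2, and PRRX1 had 17.4 and 8.36 CPM against 312 and 448 CPM. The list did not move as 1 block. PDGFRB, a receptor of mural cells and fibroblasts, had 259 and 164 CPM in replicate 1 and 224 and 149 CPM in replicate 2 (log2 fold change 0.12, SE 0.16, adjusted p = 0.679 by edgeR). PDGFRA (0.08, SE 0.32), FBN1 (-0.10, SE 0.21) and FBLN1 (-0.34, SE 0.20) also had small log2 fold changes. Collagen and PDGF receptor transcripts were thus present in the replicate 1 libraries too.

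**Figure D1:**
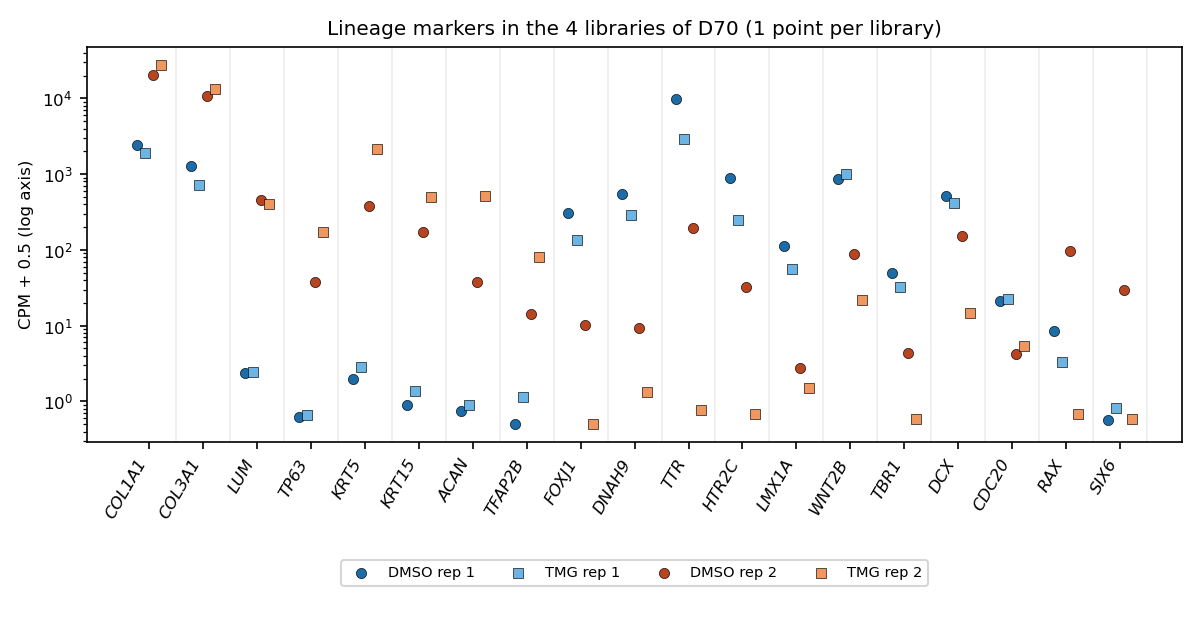
Levels of 19 list members (CPM + 0.5, log axis) in the 4 libraries of D70, 1 point per library, with circles for DMSO and squares for TMG, blue for replicate 1 and orange for replicate 2. COL1A1 to TFAP2B sit higher in both replicate 2 libraries, FOXJ1 to CDC20 sit higher in both replicate 1 libraries, and RAX and SIX6 are high in DMSO replicate 2 alone.

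Genes of the meninges, smooth muscle and extracellular matrix divided. In the meninges list 6 of 10 matched members had both replicate 2 libraries above both of replicate 1, against 29.2% of all genes. The median was -1.02, with -1.06 in the DMSO pair (8 members tested, 3 of them through 1 replicate only). IGF2, a growth factor made by meninges and mesenchyme, had 188 and 176 CPM in replicate 1 and 4252 and 9299 CPM in replicate 2 (log2 fold change -5.16, SE 0.49, adjusted p = 0.0862 by edgeR and 3.04e-31 by DESeq2). TBX18, a factor of mural and sinus mesenchyme, had 0.321 and 0.473 CPM against 32.5 and 34.2 CPM. By contrast, 8 of 12 genes of the smooth muscle and pericyte list had both replicate 1 libraries on top and 2 both replicate 2 libraries. Over all genes these shares were 31.7% and 29.2%. The median of the list was 0.96, and 0.70 in the DMSO pair. RGS5, a pericyte gene, had 85.1 and 36.7 CPM in replicate 1 and 15.6 and 10.3 CPM in replicate 2 (log2 fold change 2.09, SE 0.25, adjusted p = 0.0926 by edgeR and 3.16e-05 by DESeq2). The smooth muscle genes ACTA2 (1.23, SE 0.19) and MYH11 (1.52, SE 0.21) had log2 fold changes in the same direction. CSPG4, a proteoglycan of pericytes, went the other way, with 33.2 and 53.6 CPM in replicate 1 and 81.1 and 270.0 CPM in replicate 2 (log2 fold change -1.86, SE 0.34), as did ANGPT1.

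Of 18 genes for matrix remodelling and the TGF-beta response, 12 had both replicate 2 libraries on top and 4 both replicate 1 libraries. Over all genes these shares were 29.2% and 31.7%. The median of the list was -1.20, and -0.99 in the DMSO pair. The proteoglycan BGN had 28.4 and 21.1 CPM in replicate 1 and 209 and 363 CPM in replicate 2 (log2 fold change -3.54, SE 0.42, adjusted p = 0.0947 by edgeR and 2.51e-13 by DESeq2). IGFBP7, a secreted binding protein, went the other way, with 741 and 523 CPM in replicate 1 and 112 and 75.6 CPM in replicate 2 (log2 fold change 2.71, SE 0.19, adjusted p = 0.0755 by edgeR and 1.56e-17 by DESeq2).

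Cartilage genes were mixed, and several were highest in TMG replicate 2. ACAN, the large proteoglycan of cartilage, had 0.257 and 0.395 CPM in replicate 1, 37.5 CPM in DMSO replicate 2 and 516 CPM in TMG replicate 2 (log2 fold change -9.20, SE 0.91). HAPLN1, which links that proteoglycan to hyaluronan, had 0.128 and 0.789 CPM against 66.3 and 243 CPM. EPYC, a cartilage proteoglycan, had no count in either replicate 1 library and 2.57 and 43.1 CPM in replicate 2, at least 215-fold higher against a floor of 3 counts over the replicate 1 pair. Of 18 genes in the cartilage and bone list, 16 were tested, 6 of them through 1 replicate only. Of the 18, 9 had both replicate 2 libraries on top and 2 both replicate 1 libraries, against 29.2% and 31.7% of all genes. COL9A2, a chain of type IX collagen, had 275 and 328 CPM in replicate 1 and 30 and 174 CPM in replicate 2. The summed level of the list was 1154 CPM in DMSO replicate 1 and 965 in DMSO replicate 2, against 1448 in TMG replicate 1 and 6133 in TMG replicate 2. The median over the list was -0.80 in the DMSO pair and -2.07 in the TMG pair. COL2A1, the main collagen of cartilage and also made by neuroepithelium, had 374, 329 and 218 CPM in DMSO replicate 1, TMG replicate 1 and DMSO replicate 2, against 2783 CPM in TMG replicate 2. For COL2A1 only that library stood apart. The bone genes SP7 and IBSP were at or below 1.21 CPM in all 4 libraries.

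Genes of stratified epithelium were higher in replicate 2 by large folds. Of the 15 genes with the largest fitted difference towards replicate 2 and at least 10 CPM there, 5 encode keratins or the desmosomal cadherin DSG1 (KRT1, KRT4, KRT77, KRT78 and DSG1), and S100A8, S100A9 and SPRR3 are further genes of differentiating squamous epithelium. KRT1, a keratin of cornifying layers (ENSG00000167768, chromosome 12, 53068520 to 53074191), had no count in either replicate 1 library and 337 and 3014 CPM in the DMSO and TMG libraries of replicate 2. That is at least 15876-fold higher against a floor of 3 counts over the replicate 1 pair. KRT4, a keratin of mucosal epithelium, had 2 counts in the replicate 1 pair and 163 and 763 CPM in replicate 2, a ratio of 6658 with a 95% counting interval from 1843 to 54985. DSG1 had 2 counts in the replicate 1 pair against 39.6 and 372 CPM, a ratio of 2927 (95% counting interval 810 to 24177). Such transcripts were all but undetected in replicate 1.

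KRT5, the keratin of the basal layer (ENSG00000186081, chromosome 12, 52908359 to 52914314), had 1.48 and 2.37 CPM in replicate 1, 378 CPM in DMSO replicate 2 and 2173 CPM in TMG replicate 2 (log2 fold change -8.99, SE 0.74, adjusted p = 0.0855 by edgeR and 7.29e-60 by DESeq2). TP63, the factor that maintains basal cells (ENSG00000073282, chromosome 3, 189349178 to 189615065), had 0.128 and 0.158 CPM against 37.2 and 172 CPM (log2 fold change -9.25, SE 0.51). KRT15, also basal, had 0.385 and 0.868 CPM against 172 and 493 CPM. CDH1, the cadherin of epithelial junctions, had 2.44 and 7.89 CPM against 79 and 348 CPM (log2 fold change -5.30, SE 0.23). In each case the TMG library of replicate 2 was the highest and DMSO replicate 2 the next.

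In the epithelium list all 14 genes were matched and tested, 5 of them through 1 replicate only. Both replicate 2 libraries were on top for 11 and both replicate 1 libraries for 1, against 29.2% and 31.7% of all genes. The median was -4.37 (-3.44 in the DMSO pair and -4.92 in the TMG pair). KRT8 (0.11, SE 0.30) and KRT18 (0.69, SE 0.33), the keratins of simple epithelium that choroid plexus also makes, had log2 fold changes near 0 or towards replicate 1. KRT18 had 125 and 135 CPM in replicate 1 and 52.1 and 117 CPM in replicate 2. Estimated counts divide reads between near-identical keratin genes and pseudogenes, so values for KRT14 and KRT17 are uncertain.

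Some genes of the neural crest list were higher in replicate 2 and others were not. TFAP2A, a factor of both tissues, had 1.6 and 1.89 CPM in replicate 1 and 43.6 and 169 CPM in replicate 2 (log2 fold change -5.67, SE 0.59, adjusted p = 0.0901 by edgeR and 7.49e-21 by DESeq2). TFAP2B had 0 and 0.631 CPM against 13.6 and 79.5 CPM. ERBB3, a neuregulin receptor of crest and epithelia, had 1.16 and 2.05 CPM against 33.7 and 102 CPM. The factors that define crest more narrowly were low: SOX10 had between 1.29 and 6.19 CPM and FOXD3 at most 0.161 CPM over the 4 libraries. Of 12 neural crest genes 5 had both replicate 2 libraries on top and 1 both replicate 1 libraries, against 29.2% and 31.7% of all genes. The median of the list was -0.60, and -1.12 in the DMSO pair. MSX1, of crest and dorsal midline, was higher in replicate 1, with 33.6 and 56.3 CPM against 18 and 8.13 CPM. SOX9 (0.01, SE 0.23) and MSX2 (0.12, SE 0.18) had log2 fold changes near 0.

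Genes of the trunk HOX list, which are silent in forebrain, were low but mostly on the side of replicate 2. The name is a label of the list, which also holds HOXB3 and HOXD3, and not a position shown by these data. Of 24 genes, 17 had both replicate 2 libraries on top and 0 both replicate 1 libraries, against 29.2% and 31.7% of all genes. The median was -1.33 in the DMSO pair and -2.11 in the TMG pair. All 13 that were tested passed the filter through 1 replicate only. HOXD8 had no count in replicate 1 and 7.55 and 8.87 CPM in replicate 2, at least 81.9-fold higher against the floor of 3 counts over the pair. HOXD3 had no count in replicate 1 and 3.94 and 5.91 CPM in replicate 2, at least 48.7-fold higher. HOXB3 was present in replicate 1 as well: it had 7.9 CPM in DMSO replicate 1, 7.96 in DMSO replicate 2, 0.71 in TMG replicate 1 and 14.6 in TMG replicate 2. The sources used here do not state counting by strand, so HOX genes and their antisense neighbours may share reads. EN1, a midbrain and hindbrain factor that is also made in ventral surface ectoderm, had no count in replicate 1 and 5.71 and 11.4 CPM in replicate 2, at least 83.6-fold higher.

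**Figure D2:**
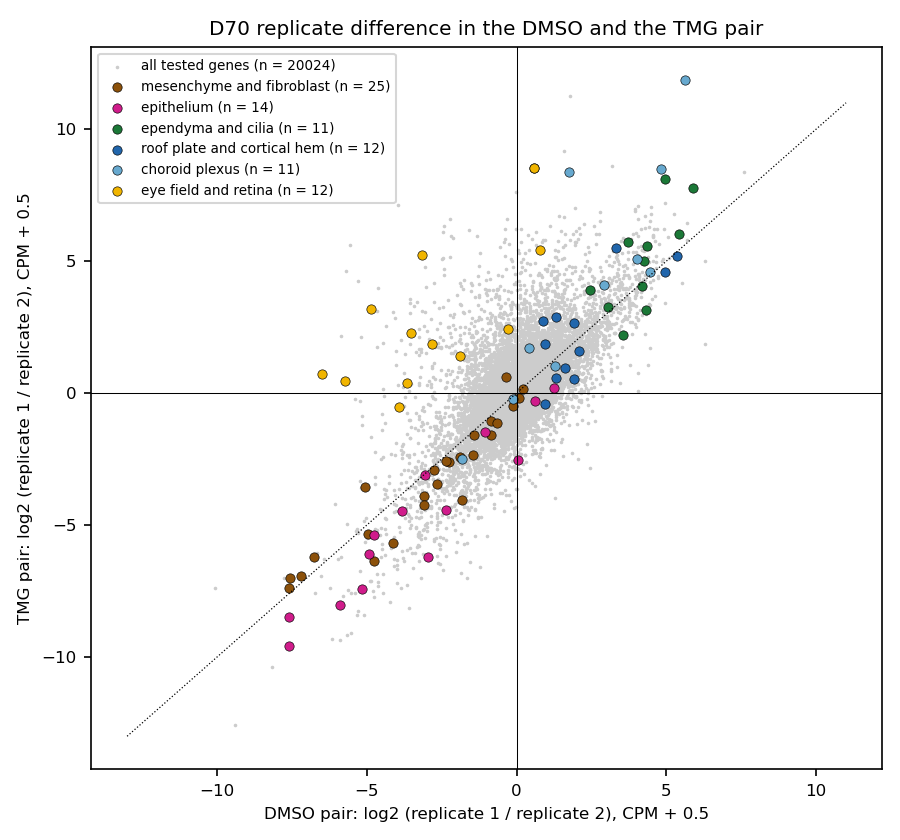
Replicate difference of every tested gene (grey, n = 20024) in the DMSO pair (x axis) and the TMG pair (y axis), as log2 of replicate 1 over replicate 2 with 0.5 CPM added, with all matched members of 6 lists in colour and equality dotted. Mesenchyme and epithelium lie mostly at the lower left, cilia and roof plate at the upper right, and eye field genes mostly at the upper left, where the pairs differ in direction. Across genes the pairs correlated at 0.666.

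Replicate 1 had the genes of multiciliated cells. FOXJ1, the master factor of motile cilia (ENSG00000129654, chromosome 17, 74132414 to 74137326), had 311 CPM in DMSO replicate 1, 136 in TMG replicate 1, 9.56 in DMSO replicate 2 and no count in TMG replicate 2 (log2 fold change 6.41, SE 1.51). DNAH9, a dynein heavy chain of the outer arm, had 549 and 287 CPM in replicate 1 and 8.76 and 0.831 CPM in replicate 2 (log2 fold change 6.90, SE 0.84). TEKT1, a tektin of the axoneme, had 89.1 and 38.5 CPM against 1.61 and 0.0924 CPM. All 11 matched members of the 12 in the ependyma and cilia list were tested, 8 of them through 1 replicate only. For all 11 both replicate 1 libraries were on top, against 31.7% of all genes. The median was 4.63, with 4.24 in the DMSO pair and 5.02 in the TMG pair.

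A cluster of neighbouring genes on chromosome 5 is known to drive multiciliated cells, and it was read out in replicate 1. CDC20B (54408799 to 54469005 of GRCh37) had 342 and 167 CPM in replicate 1 and 1.29 and 0 CPM in replicate 2 (log2 fold change 8.78, SE 0.96). MCIDAS (54515392 to 54523143), which starts the program, had 14.2 and 5.52 CPM against 0.241 and 0.185 CPM. CCNO (54526980 to 54529436), a cyclin-like protein needed to multiply centrioles, had 108 and 47.7 CPM against 0.884 and 1.02 CPM. Of the 15 genes with the largest fitted difference towards replicate 1 and at least 10 CPM there, FOXJ1, DNAH9, TEKT1, CDC20B, DNAI2, CCNO, CFAP95 and CROCC2 are genes of cilia or centrioles.

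Promoters of cilia genes are known to hold X-boxes, the sites of RFX factors. The letters GTNNCC and GNAAC, with any 3 bases between them, were searched on both strands in RefSeq promoters (250 bases before to 50 after a gene's start, GRCh38.p14) of the cilia list and of the 15 genes with the largest difference towards replicate 1, 22 genes in all. Of these, 16 had a promoter in the table and 4 held the letters, against 2.28% of all 35116 promoters. The 4 matches are shown because 2 of them, CCNO and CDC20B, belong to that chromosome 5 cluster. Capitals mark the matched stretch, the sequences run on the strand of the gene, and a match is a description of letters, not of binding.
CCNO, chr5:55233824-55233853, minus strand: gggctccgGTTGCCCAGGTAACgcaggacg
CDC20B, chr5:55173175-55173204, minus strand: tttaaatgGTACCCTGGGGAACaccttgca
CROCC2, chr2:240906232-240906261, plus strand: gttcctttGTCCCCACAGCAACagggtcct
DNAH11, chr7:21543003-21543032, plus strand: gggacaccGTCCCCCGGGAAACgggacgcg
Each window starts 8 bases before the matched stretch.

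The dorsal midline went with the cilia. TTR, the thyroid hormone carrier that choroid plexus secretes (ENSG00000118271, chromosome 18, 29136972 to 29178796), had 9798 CPM in DMSO replicate 1, 2908 in TMG replicate 1, 197 in DMSO replicate 2 and 0.277 in TMG replicate 2 (log2 fold change 8.51, SE 2.70). HTR2C, the serotonin receptor of choroid plexus, had 899 and 248 CPM in replicate 1 and 31.5 and 0.185 CPM in replicate 2. SLC4A5, a bicarbonate transporter, had 479 and 220 CPM against 28.9 and 5.91 CPM, and FOLR1, which carries folate into the fluid, had 80 and 36.3 CPM against 3.21 and 1.02 CPM. For each of these 4 genes DMSO replicate 2 lay between the replicate 1 libraries and TMG replicate 2. Of 11 choroid plexus genes, all tested and 3 of them through 1 replicate only, 8 had both replicate 1 libraries on top and 2 both replicate 2 libraries. Over all genes these shares were 31.7% and 29.2%. The median was 4.52, with 1.75 in the DMSO pair and 4.60 in the TMG pair. PRLR, the prolactin receptor, went against the list, with 8.79 and 4.5 CPM in replicate 1 and 32.5 and 27.9 CPM in replicate 2.

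Most roof plate and cortical hem genes were higher in replicate 1 in both arms. LMX1A, the factor of the roof plate, had 113 and 54.8 CPM in replicate 1 and 2.25 and 1.02 CPM in replicate 2 (log2 fold change 5.64, SE 0.22, adjusted p = 0.0754 by edgeR and 4.90e-31 by DESeq2). RSPO2, a secreted enhancer of Wnt signalling, had 172 and 49.4 CPM against 5.06 and 1.57 CPM (log2 fold change 4.98, SE 0.20, adjusted p = 0.0754 by edgeR and 2.00e-30 by DESeq2). WNT2B, a ligand of the hem, had 866 and 997 CPM against 86.9 and 21.4 CPM. Of 12 genes, all tested and 0 of them through 1 replicate only, 11 had both replicate 1 libraries on top. With an unadjusted p under 0.05, edgeR placed 8 of the 12 higher there, and DESeq2 called 6. Over all genes these shares were 31.7%, 12.2% and 6.79%. The median was 1.81, with 1.76 in the DMSO pair, which does not use TMG replicate 2, and 2.27 in the TMG pair. RSPO1 was the exception, at 25.2 and 17.4 CPM in replicate 1 and 12.7 and 23.4 CPM in replicate 2.

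**Figure D3:**
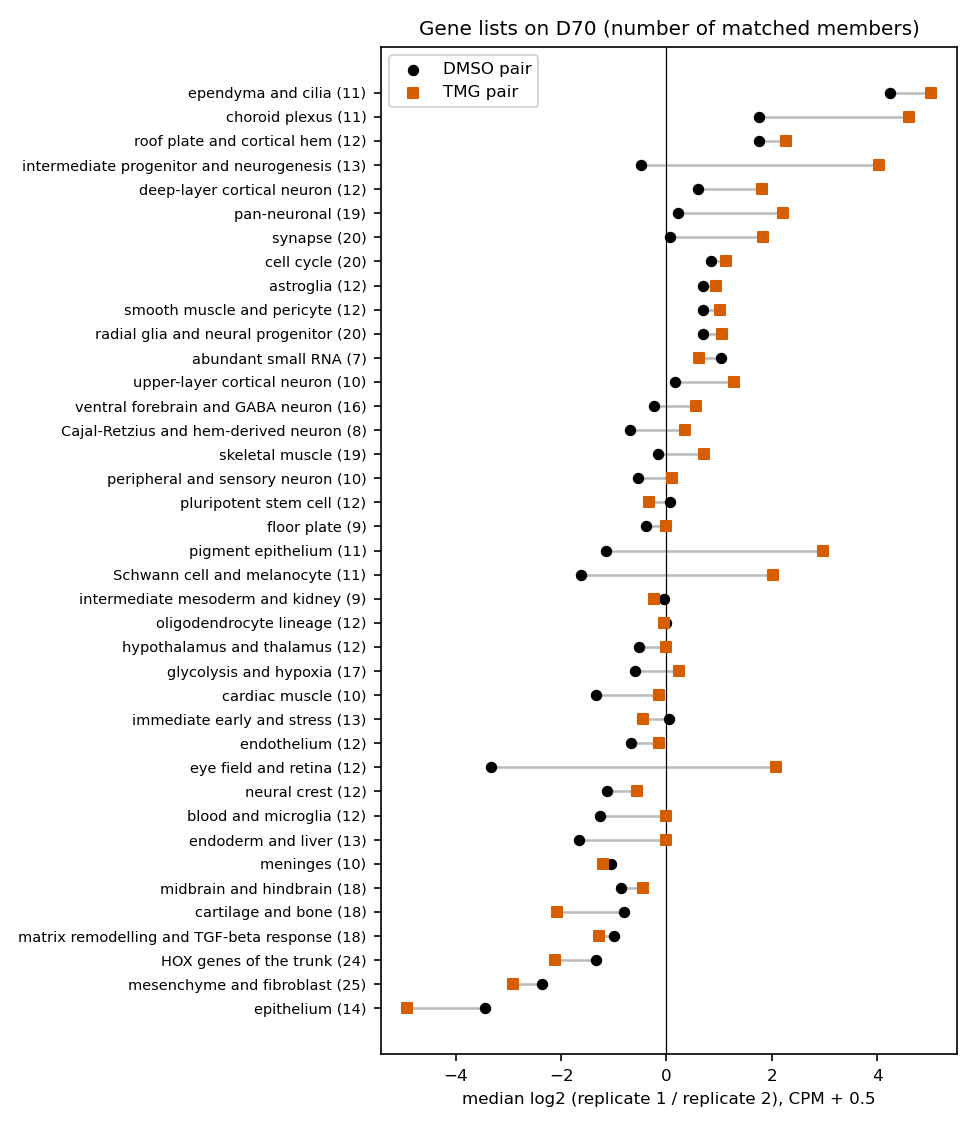
Median log2 ratio of replicate 1 over replicate 2 (CPM + 0.5) over the matched members of 39 gene lists, in the DMSO pair (black circles) and in the TMG pair (orange squares), ordered by the mean of both arms. Epithelium, mesenchyme and trunk HOX genes lie below 0 and cilia, choroid plexus and roof plate above 0 in both pairs, while the eye field, pigment epithelium and melanocyte lists lie on opposite sides of 0.

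Several neuronal genes were lowest in TMG replicate 2. Both replicate 1 libraries were on top for 11 of 19 matched pan-neuronal genes and 10 of 20 synapse genes, against 31.7% of all genes. In the synapse list 3 genes were higher there at an unadjusted p under 0.05 by edgeR, a share near the 12.2% of all genes. DESeq2 called 6 of that list, against 6.79% of all genes. DCX, a microtubule protein of migrating neurons, had 512 and 418 CPM in replicate 1, 152 CPM in DMSO replicate 2 and 14.2 CPM in TMG replicate 2 (log2 fold change 3.24, SE 1.06, adjusted p = 0.224 by edgeR and 7.12e-05 by DESeq2). STMN2, a marker of postmitotic neurons, had 46, 76.7 and 44.1 CPM in the other three libraries and 1.29 CPM in TMG replicate 2. TBR1, the factor of early cortical neurons, had 48.9 and 31.6 CPM against 3.86 and 0.0924 CPM (log2 fold change 4.97, SE 1.21). The pan-neuronal list (19 of 20 matched and tested) had a median of 0.22 in the DMSO pair and 2.22 in the TMG pair. The synapse list (20 genes) had 0.07 and 1.83. Deep-layer neuron genes (12) had 0.59 and 1.82, and of that list BCL11B (20 and 34.4 CPM against 38.6 and 131 CPM) and FOXP2 (5.71 and 9.23 CPM against 37.5 and 31.1 CPM) were higher in replicate 2.

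Among forebrain progenitor genes, TMG replicate 2 again differed from DMSO replicate 2. PAX6, a factor of cortical radial glia and eye, had 306 and 586 CPM in replicate 1 and 312 CPM in DMSO replicate 2, but 2.49 CPM in TMG replicate 2. SOX2, a factor of neural stem cells, had 112 and 52.6 CPM against 50.6 and 22.6 CPM. The radial glia list (20 genes, 19 tested) had 9 members with both replicate 1 libraries on top and 6 with both replicate 2 libraries. Over all genes these shares were 31.7% and 29.2%, the second near that of the list. The median of the list was 0.92, with 0.69 in the DMSO pair. Other members of the list were present in TMG replicate 2, such as NES at 70.9 CPM and PTPRZ1 at 151 CPM.

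Several eye genes were high in DMSO replicate 2 alone. RAX, SIX6, CRX, DCT and TYR are named here after their values were seen. RAX, the factor that sets up the eye field, had 7.9 CPM in DMSO replicate 1, 95.7 in DMSO replicate 2, 2.84 in TMG replicate 1 and 0.185 in TMG replicate 2. SIX6, another eye field factor, had 0.0642, 29.3, 0.316 and 0.0924 CPM in the same order, and CRX, of photoreceptor precursors, had 4.62, 45.5, 18.2 and 0 CPM. DCT, an enzyme of melanin synthesis, had 68.7, 1075, 121 and 0.369 CPM, and TYR had 11.4, 98.5, 13 and 0 CPM. Other members of the eye field list had another order. OTX2, a factor of forebrain, eye and choroid plexus, had 184 and 217 CPM in replicate 1, 122 CPM in DMSO replicate 2 and 0.0924 CPM in TMG replicate 2, and SIX3, a forebrain and eye factor, had 84.2, 37.2, 48.5 and 0.369 CPM in that order. Medians over the 12 eye field genes were -3.34 in the DMSO pair and 2.08 in the TMG pair, over the 11 pigment epithelium genes -1.15 and 2.97, and over the 11 Schwann cell and melanocyte genes -1.63 and 2.03. This difference between arms was not tested. RPE65, the visual cycle enzyme of pigment epithelium, did not follow: it had 63.6 and 20 CPM in replicate 1 and 1.37 and 0.0924 CPM in replicate 2 (log2 fold change 6.03, SE 0.60).

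Some endoderm and liver genes were also higher in DMSO replicate 2 than in the other libraries, and APOB, AFP and HNF4A are named after their values were seen. APOB, the protein of lipid particles, had 47 CPM there and between 0.473 and 0.831 CPM in the other libraries. AFP, a secreted protein of fetal liver and yolk sac, had 18.6 CPM there and at most 0.128 CPM elsewhere, and HNF4A, a factor of endoderm, had 6.51 CPM there and at most 0.0924 CPM elsewhere. Others of the list were not: GATA6 had 13.3 and 7.02 CPM in replicate 1 and 9.08 and 2.31 CPM in replicate 2, FOXA1 had 0.257 and 0.237 CPM against 1.93 and 1.94 CPM. Of 13 matched genes of that list only 3 were tested, since the filter asks for enough counts in at least 2 of the 4 libraries. The factors that define skeletal muscle were low: MYOD1 reached at most 0.241 CPM, and MYF5 had no count in any of the 4 libraries. CDH5, a defining gene of endothelium, had at most 1.21 CPM. ERG, which endothelium shares with mesenchymal and cartilage precursors, had 0.321 and 0.316 CPM in replicate 1 and 20.5 and 30.7 CPM in replicate 2. CLDN5, a tight junction gene of endothelium, went the other way, with 79.8 and 19.9 CPM in replicate 1 and 4.9 and 0.185 CPM in replicate 2 (log2 fold change 4.79, SE 0.76). Pluripotency genes summed to 12.6 and 14.3 CPM in replicate 1 and 23.7 and 23.1 CPM in replicate 2, against 4334 to 4995 CPM on D0.

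Of 20 cell cycle genes, 11 were higher in replicate 1 and 1 in replicate 2 at an unadjusted p under 0.05 by edgeR. Over all genes these shares were 12.2% and 10.7%. DESeq2 called 6 and 0 of the list, against 6.79% and 4.74% of all genes. The median was 0.99, with 0.84 in the DMSO pair. CDC20, an activator of the anaphase complex, had 20.4 and 21.7 CPM in replicate 1 and 3.7 and 4.9 CPM in replicate 2 (log2 fold change 2.25, SE 0.28, adjusted p = 0.0926 by edgeR and 0.000868 by DESeq2). CCNB1, the mitotic cyclin, had 30.8 and 35.9 CPM against 9.64 and 11.8 CPM (log2 fold change 1.59, SE 0.21). PCNA (-0.04, SE 0.18), TYMS (-0.01, SE 0.27) and MCM3 (-0.11, SE 0.24), of DNA synthesis, had log2 fold changes near 0. The multiciliated program is known to reuse mitotic genes, and the part of ciliated cells in these values was not tested.

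In the immediate early and stress list 5 of 13 genes were higher in replicate 2 and 0 in replicate 1 at an unadjusted p under 0.05 by edgeR. Over all genes these shares were 10.7% and 12.2%. TRIB3, a target of the amino acid and endoplasmic reticulum stress response, had 10.9 and 10.8 CPM in replicate 1 and 108 and 119 CPM in replicate 2 (log2 fold change -3.43, SE 0.18, adjusted p = 0.0754 by edgeR and 1.41e-18 by DESeq2). ASNS, which makes asparagine (28.2 and 30.2 CPM against 83.7 and 103 CPM), CHAC1 and DDIT3 showed the same order. ATF3, a further gene of that response, had 23.7 and 16.6 CPM in replicate 1 and 11.8 and 14.9 CPM in replicate 2. FOS (-0.27, SE 0.35) and EGR1 (0.18, SE 0.28), which are immediate early genes, had log2 fold changes near 0. Of 17 glycolysis and hypoxia genes, 4 were higher in replicate 2 and 0 in replicate 1 at an unadjusted p under 0.05 by edgeR. DESeq2 called 3 and 0. Over all genes the shares were 10.7% and 12.2% by edgeR and 4.74% and 6.79% by DESeq2. The edgeR count towards replicate 2 was larger without TMG replicate 2, where only 1 library of that replicate is left. The median over these 17 genes was -0.16, with -0.60 in the DMSO pair and 0.24 in the TMG pair. NDRG1, a hypoxia target, had 46.3 and 42.5 CPM against 241 and 210 CPM (log2 fold change -2.39, SE 0.17). PDK1 (-1.45, SE 0.28) and LDHA (-1.25, SE 0.20) were also lower in replicate 1, while PGK1 (-0.21, SE 0.21) and CA9 (-0.18, SE 0.46) were near 0.

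Structured small RNAs, which library preparation by depletion of ribosomal RNA leaves in, were mostly higher in replicate 1: both of its libraries were on top for 6 of 7 matched genes, 4 of them at an unadjusted p under 0.05 by edgeR. Over all genes these shares were 31.7% and 12.2%. RN7SK had 48529 and 56867 CPM in replicate 1 and 24703 and 23260 CPM in replicate 2 (log2 fold change 1.08, SE 0.32, adjusted p = 0.195 by edgeR and 0.00323 by DESeq2). RN7SL2, with 35526 and 43251 CPM in replicate 1 and 34376 and 47625 CPM in replicate 2, did not separate them (log2 fold change -0.09, SE 0.31). The 7 matched genes of 10 summed to 94336 and 110955 CPM in replicate 1 and 63234 and 78847 CPM in replicate 2. These genes have near-identical copies between which counts are divided. Their part in the other differences was not tested. Mitochondrially encoded transcripts were not analysed here.

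The replicate contrast was also fitted at the earlier stages, in libraries that the D70 contrast does not use. On D0 edgeR called 0 of 20469 genes at a 5% false discovery rate (0%), with 389 at an unadjusted p under 0.05 and 25 calls by DESeq2. It called 172 of 21745 on D12 (0.791%), a number that was 0 without DMSO replicate 1, 0 without either TMG library and 54 without DMSO replicate 2. On D30 it called 14 of 19411 (0.0721%), and 0 when the DMSO or the TMG library of replicate 1 was left out, while leaving out TMG replicate 2 gave 2 and leaving out DMSO replicate 2 gave 115. Across genes, the differences in the DMSO pair and in the TMG pair correlated at 0.0587 on D0 and at 0.447 on D12. The value was 0.308 on D30 and 0.666 on D70. The SD across genes of the difference was between 0.308 and 0.76 at the earlier stages and 1.11 in the DMSO pair and 1.44 in the TMG pair on D70.

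The difference between the stages was tested itself, in 1 fit of all 16 libraries. This fit shares its spread across stages, although the spread was largest on D70, so its adjusted p may be too low. For 2286 of 24249 genes (9.43%) the replicate difference on D70 differed from that on D30 (edgeR, 5% false discovery rate), 1537 in the direction of replicate 1 and 749 in that of replicate 2. Leaving out single libraries moved this count to between 473 and 2980, with 473 without DMSO replicate 1 of D30 and 476 without DMSO replicate 2 of D30. Without a TMG library of D30 it was 866 (replicate 1) or 875 (replicate 2), and without TMG replicate 1 of D70 it was 1465. For KRT5 the log2 fold change was -9.00 on D70 and 1.23 on D30, a difference of -10.23 (SE 1.04, adjusted p = 0.0132 by edgeR). TP63 had a difference of -9.60 (SE 1.15, adjusted p = 0.0124), FOXJ1 of 6.60 (SE 1.21, adjusted p = 0.0237), TTR of 9.65 (SE 2.00, adjusted p = 0.032) and LMX1A of 5.51 (SE 0.66, adjusted p = 0.0102). For the collagens the test did not separate the stages: COL1A1 had -3.48 on D70 and -1.30 on D30 (difference -2.18, SE 0.59, adjusted p = 0.0615), and COL3A1 had -3.65 and -2.87 (difference -0.78, SE 0.67, adjusted p = 0.498). Nor did it for LUM, with -7.81 and -1.95 (difference -5.85, SE 1.69, adjusted p = 0.0844). Apart from the 2 collagens these genes were named for a large difference on D70, so a difference between stages is partly built in.

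**Figure D4:**
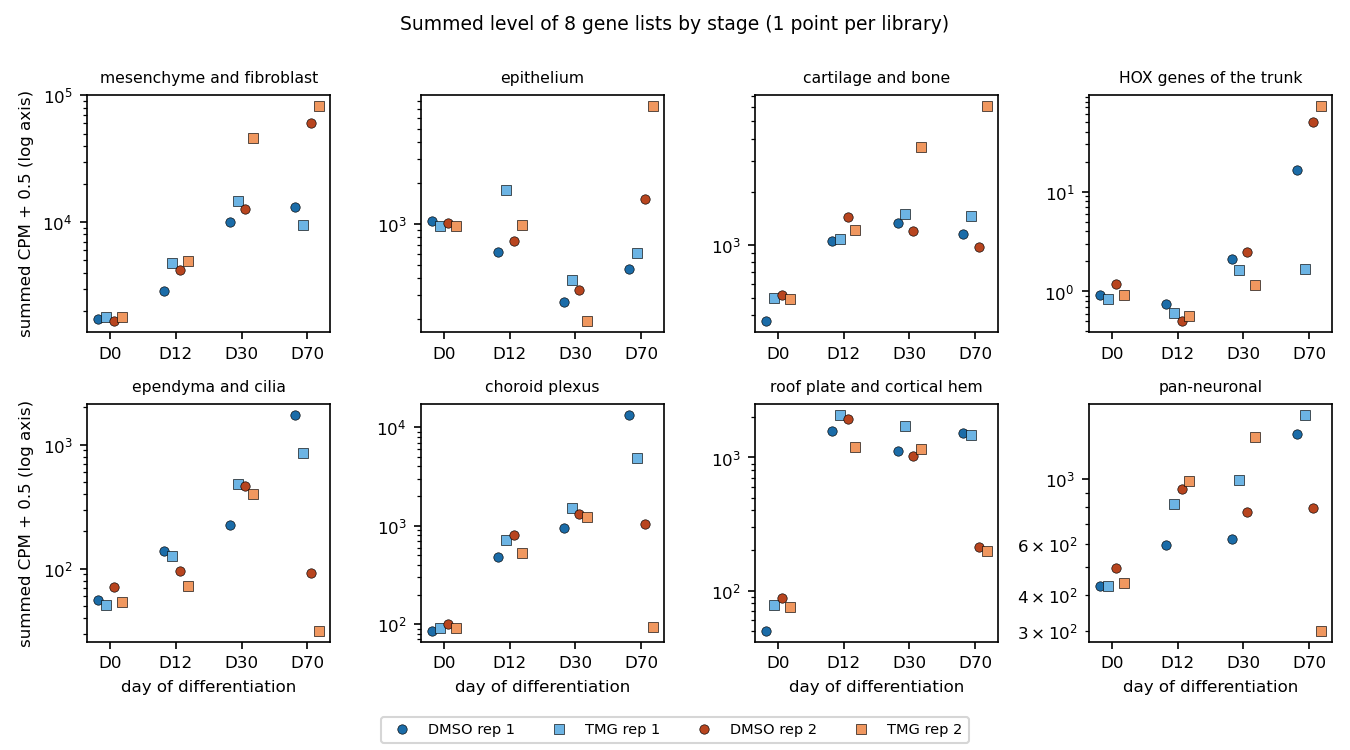
Summed CPM + 0.5 (log axes) of the matched members of 8 gene lists in all 16 libraries by stage, 1 point per library, with circles for DMSO and squares for TMG, blue for replicate 1 and orange for replicate 2. The mesenchyme sum of TMG replicate 2 stands out on D30 already (46237 CPM against 10105 to 14617 CPM in the other three), while epithelium, cilia and roof plate separate the replicates on D70.

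COL3A1 on D30 had 178 CPM in DMSO replicate 1, 1062 in TMG replicate 1, 945 in DMSO replicate 2 and 10705 in TMG replicate 2. For this gene replicate 2 was thus higher in each arm a stage before D70. DCN, a fibroblast proteoglycan, had 1.03, 22.9, 10.1 and 381 CPM in the same order, and on D70 14.3, 50.8, 492 and 597 CPM. Other members did not share this in the DMSO pair: on D30 COL1A2 had 2822, 1898, 2116 and 7836 CPM in that order, and LUM 31.3, 22.3, 22.1 and 465 CPM. The median over the mesenchyme list on D30 was -0.43 in the DMSO pair and -1.99 in the TMG pair, where TMG replicate 2 stood apart. KRT5 on D30 was at most 2.52 CPM in any library, and TP63 at most 3.4 CPM, both in TMG replicate 1. FOXJ1 on D30 was in all 4 libraries, between 55.8 and 143 CPM, with the lowest value in DMSO replicate 1, which had the highest on D70. LMX1A on D30 had between 62.6 and 119 CPM in all 4 libraries. TTR had 36.4 CPM in DMSO replicate 1 and 141 to 263 CPM in the other libraries of D30. Summed over the list, roof plate genes on D30 had 1115 and 1712 CPM in replicate 1 and 1034 and 1164 CPM in replicate 2, and on D70 1520 and 1472 CPM against 213 and 199 CPM. Summed cilia genes on D30 had 223 and 484 CPM against 465 and 400 CPM, and on D70 1731 and 852 CPM against 92.1 and 31.1 CPM.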

How the data were processed

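RNA of H9 cells was sequenced after depletion of ribosomal RNA, with 2 DMSO and 2 TMG libraries at each of 4 stages. The authors aligned reads to hg19 with bowtie2 and deposited the estimated counts that RSEM 1.2.12 gave for 57736 Ensembl genes, as whole numbers and without normalization. Names were assigned to 55501 genes, and 0 columns of samples were left unused. Gene positions are from GENCODE v44 on GRCh37. Libraries were grouped by title.

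Replicate 1 was compared with replicate 2 by edgeR 4.0.16 (TMM, filterByExpr with a minimum count of 10, robust quasi-likelihood F-test, treatment as covariate, Benjamini-Hochberg adjustment over all genes tested) on the 4 libraries of a stage, after tests on simulated data. On D70 the filter asked for 0.754 CPM in any 2 of the 4 libraries, and the biological coefficient of variation was 0.364. Members said to pass through 1 replicate only reached this level in both libraries of that replicate but not of the other. DESeq2 1.42.0 was an alternative, as were RLE normalization, other filters, no covariate, each library left out and a fit of all 16 libraries. Fits of 1 stage with a library left out had no treatment covariate and kept 1 library of 1 replicate. R 4.3.3 and Python were used. The SE of an edgeR log2 fold change is its size over the square root of F. A floor of 3 counts over a pair served where a pair had none, and counting intervals (95%) and floors cover counting error only. Library totals of D70 were from 12213409 to 17757289.

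Of 40 gene lists with 533 symbols, 511 were matched and 26 stand in several lists. Named genes are COL1A1, COL3A1, OGT, OGA, up to 3 members of each list with the largest difference of the same sign in both arms, and the 15 largest such differences in each direction with a symbol and at least 10 CPM. This form of the rule applied because no gene passed the false discovery rate. Other members are given for contrast and were chosen after their values were seen. The members and lists were chosen with earlier results of these data known. Some list members are not reported here.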

Additional observations from a re-analysis of the deposited data

Results flagged for a closer look

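The replicate difference of D70 differed from that of D30 for 2286 genes by edgeR's test of the difference itself. Of the genes given above it did so for KRT5 (-10.23 on the log2 scale, D70 minus D30), TP63 (-9.60), FOXJ1 (6.60), TTR (9.65) and LMX1A (5.51). It did not for COL1A1, COL3A1 or LUM. The labels do not say whether a number marks the same culture on D30 and D70.

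In 3 lists the medians of the DMSO and TMG pairs of D70 lay on opposite sides by at least 1 on the log2 scale each, and this difference was not tested. Other lists had opposite signs with a smaller value in at least 1 pair, such as neurogenesis with -0.48 in DMSO and 4.04 in TMG. The medians of replicate 1 over replicate 2 were -3.34 in DMSO and 2.08 in TMG for the eye field and retina, -1.15 and 2.97 for pigment epithelium, and -1.63 and 2.03 for Schwann cells and melanocytes. The last 2 lists share PMEL, TYR, TYRP1 and MITF.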

How the results depend on the processing

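No paired analysis was possible because the replicate number is itself what is compared. The calls on D70 (5% false discovery rate), 0 by edgeR, were 2219 by DESeq2, 1246 without a filter, 29 without the treatment covariate and 4436 in a fit of all 16 libraries, and between 0 and 2833 when single libraries were left out (2833 without DMSO replicate 2 and 227 without TMG replicate 2). It was 0 with RLE normalization and with a filter of 10 counts in every library. Fits of 1 stage without single libraries also lacked the treatment covariate. On D0 the 0 calls became 25 by DESeq2 and between 0 and 391 without single libraries (391 without TMG replicate 2). On D12 the 172 became 410 by DESeq2, 0 in the fit of 16 libraries and between 0 and 54 without single libraries. On D30 the 14 became 201, 1 and between 0 and 115. The 2286 genes whose difference changed from D30 to D70 were 3027 by DESeq2 and between 473 and 2980 without single libraries. Leaving out libraries at earlier stages or for the change was chosen after seeing the data, and the cause of these shifts was not tested.

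Of 39 lists, 21 had a median fitted log2 fold change of their tested members beyond 1 in either direction, and between 14 and 26 under the alternatives, between 20 and 26 without single libraries. Of 386 list medians under the alternatives, 14 changed sign in lists with a median beyond 1, 282 of the others stayed within 1 SD between the medians of the DMSO and TMG pairs, and 90 moved further. Blood and microglia (-1.11 in the 4 libraries) ranged from -2.57 to 1.08 without single libraries (1.08 without DMSO replicate 2). Kidney precursors (-2.87) had 0.41 with 10 counts in every library, 0.45 in 16 libraries and between -2.01 and 0.83 without single libraries (0.07 without DMSO replicate 2, 0.83 without TMG replicate 2). Neurogenesis (1.69) had -0.53 with 10 counts in every library and -0.42 to 7.97 without single libraries (-0.42 without TMG replicate 1). Floor plate (-2.10) had 2.41 in 16 libraries and 0.05, 0.12, 0.01 and 2.49 when DMSO replicate 1, DMSO replicate 2, TMG replicate 1 or TMG replicate 2 was left out. Pluripotency (-1.05) had 0.26 without a filter and 0.15 in 16 libraries. Of 1287 values of 137 named genes under 10 alternatives, 8 changed sign: CORIN (-2.10, and -4.58 to 0.05 without single libraries, 0.05 without DMSO replicate 1), OGT (0.04 without a filter, 0.12 without DMSO replicate 1, 0.29 without TMG replicate 2, -0.28 without DMSO replicate 2 and 0.01 in 16 libraries) and OGA (0.01 without a filter, and between -0.30 and 0.21 without single libraries, 0.21 without DMSO replicate 1 and 0.19 without TMG replicate 2). The other 1279 kept their direction, and 393 of them passed at 5%. At this depth, genes under about 1 CPM rest on few counts.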
